A study of Mus musculus with 6 samples.

Results

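The 31 genes described here code for enzymes and regulators of sterol and fatty acid synthesis in mouse pancreatic islets, 22 in the sterol arm and 9 in the fatty acid arm. They were picked by name, and their probes were found through the RefSeq accession that the array annotation gives each probe. Of 39426 probes on the array, 46 belonged to members and 39 of these were bright enough to enter the comparisons. The comparisons covered 19021 genes, 30 of them members. The member left out was Scd1, a stearoyl-CoA desaturase best known from liver and fat, whose probe was well above background on 1 of 6 arrays, a TrspFF array.

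The mice were males of ICR background, aged 16 weeks, per the labels, and every group carried the same floxed alleles of Trsp, the gene for the transfer RNA that inserts selenocysteine into selenoproteins. Trsp-Ins1KO islets (TrspFlox/Flox::Ins1-Cre) had Cre under the control of Ins1. Trsp-RIPKO islets (TrspFlox/Flox::RIP-Cre) received Cre from a rat insulin promoter, which is known to act in some hypothalamic neurons as well as in beta cells. TrspFF islets (TrspFlox/Flox) had the floxed alleles and no Cre in their label, and none of the 3 groups carried Cre without floxed Trsp. Both promoters act in beta cells, while whole islets also hold alpha, delta, endothelial and other cells. Each group had 2 arrays of 1 colour, and nothing in the labels says that they came from separate animals, so a p-value reflects how far the arrays of a group lay apart, a spread that may be technical. The number of arrays limits the precision of every value below.

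Cholesterol is built from acetyl-CoA through mevalonate, isopentenyl diphosphate, squalene and lanosterol, and fatty acids are built from acetyl-CoA and malonyl-CoA with NADPH as the reductant. Sterol enzymes are classical targets of the transcription factor SREBP2, which SCAP escorts out of the endoplasmic reticulum when sterols are scarce and which INSIG proteins hold back when sterols are plentiful. SREBP1, from Srebf1, has the same transport and drives lipogenic genes. In beta cells, export of citrate from mitochondria and its conversion to malonyl-CoA are studied as part of the response to glucose.

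Signal is given as log2 of the processed intensity relative to the 75th percentile of its array, and a difference is the first group named minus the other. The 75th percentile lay between 110.7 and 121.9 in Trsp-Ins1KO, between 203.0 and 215.2 in Trsp-RIPKO and between 218.1 and 247.2 in TrspFF, with 0 saturated probes. Trsp-Ins1KO and TrspFF shared slide 1, and the Trsp-RIPKO arrays were the only ones of this series on slide 2. So for this line an effect of the slide and one of the genotype cannot be told apart. The Trsp-RIPKO arrays also carry an extraction status of 1 from the Feature Extraction software, against 0 for the other arrays. In the authors' deposited table of log2 values, the columns named TrspFF follow the scanner files of Trsp-Ins1KO (r = 1.000 over 19486 probes) and the reverse, whereas the Trsp-RIPKO columns follow their own files. Every direction below rests on the names of the scanner files, and under the table's names each difference of Trsp-Ins1KO from TrspFF has the opposite sign. Differences of Trsp-RIPKO from TrspFF then change too, since another group takes the place of TrspFF. Among them Me1 turns its sign and Scd2 loses its call. The label of male mice also goes against Xist, the X-inactivation RNA of female cells, at 1.05 and 1.34 in Trsp-RIPKO and -0.56 and -0.32 in TrspFF, while it was not above background in Trsp-Ins1KO. The Y-linked genes Ddx3y and Eif2s3y were well above background on all 6 arrays, at 0.75 and 0.51 and at 1.11 and 1.02 in Trsp-Ins1KO, at -0.53 and -0.44 and at 0.37 and 0.32 in Trsp-RIPKO and at 0.96 and 0.78 and at 1.53 and 1.41 in TrspFF. The array annotation gave no probe for Trsp, so the deleted gene could not check the labels.

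Against TrspFF, members of both arms changed in both directions in each knockout, at about the rate of all genes or below it. A gene was called higher or lower where the limma adjusted p (Benjamini-Hochberg over all 19021 genes) was under 0.05. In Trsp-Ins1KO against TrspFF, 45.9% of all genes were called, 23.0% higher and 23.0% lower, and of the sterol arm 3 of 22 members rose and 6 fell (median difference -0.09, against -0.01 over all genes). Of the 8 tested members of the fatty acid arm, 2 rose and 2 fell (median -0.01). In Trsp-RIPKO against TrspFF, 36.4% of all genes were called, 18.9% higher and 17.5% lower, and of the sterol arm 1 member rose and 3 fell (median -0.02). Of the fatty acid arm 1 rose and 2 fell (median -0.27, against 0.0 over all genes). Scaling each array to its median in place of its 75th percentile shifted the median of all genes by -0.238 in Trsp-RIPKO against TrspFF, and 21.7% of the called genes were then higher, against 51.9%. Under that scaling 48.8% of all genes were called. None of the sterol arm rose then and 8 of 22 fell, and none of the fatty acid arm rose and 6 of 8 fell. Background correction by normexp shifted the median of all genes by 0.174 in Trsp-Ins1KO against TrspFF, where 65.9% of the called genes were then higher, against 4371 of 8737 without it. With normexp 7 of the 22 sterol arm members rose and 9 fell there, where 73.5% of all genes were called. Since the RNA came from whole islets, fewer cells of a type and less RNA per cell cannot be told apart in any of these values.

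**Figure D1:**
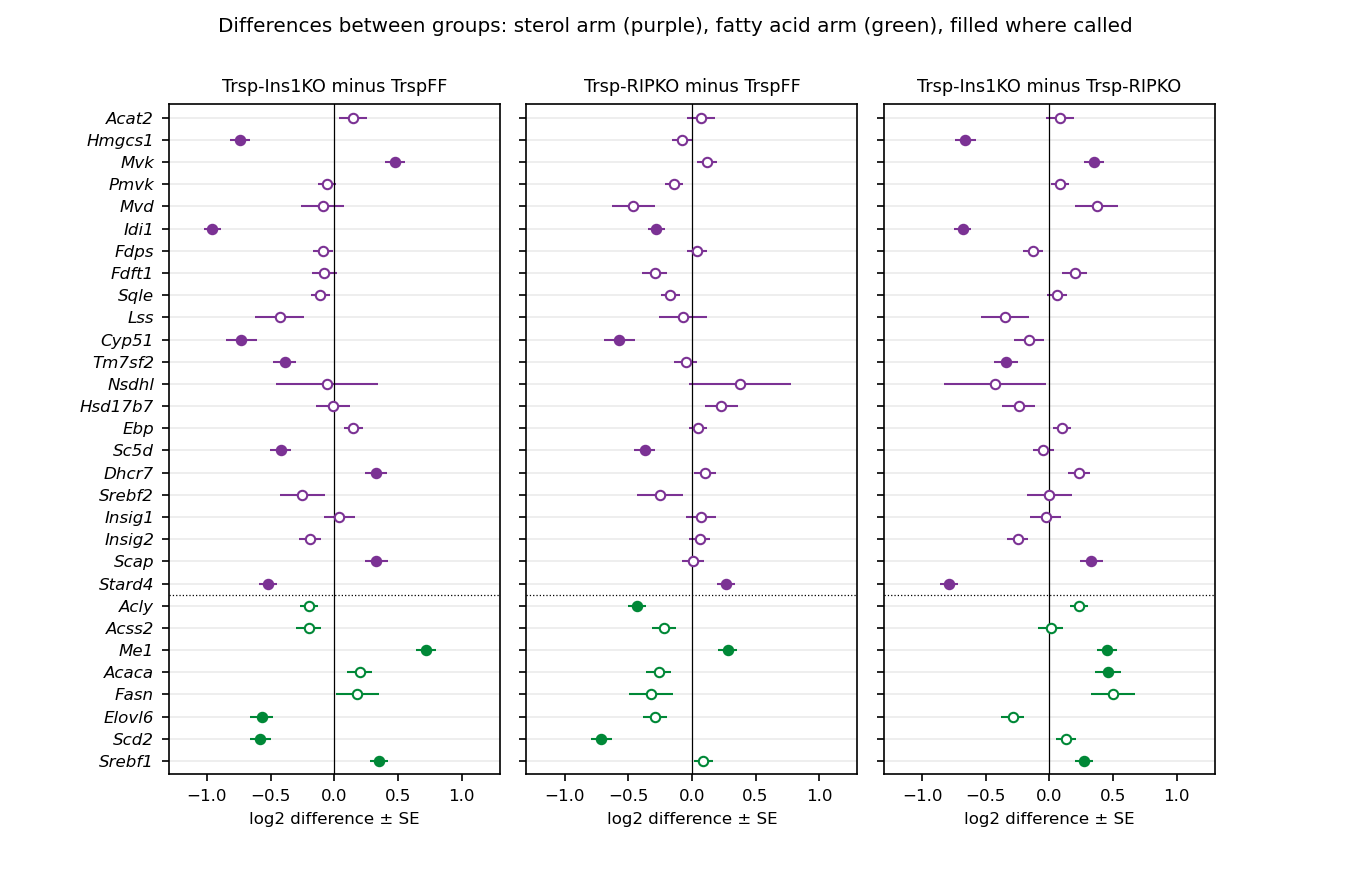
Log2 difference of each tested member with its standard error (SE) from limma, for Trsp-Ins1KO minus TrspFF, Trsp-RIPKO minus TrspFF and Trsp-Ins1KO minus Trsp-RIPKO. Filled points are called at a limma adjusted p under 0.05, purple points are the sterol arm and green points the fatty acid arm. The farthest point from 0 is Idi1 in Trsp-Ins1KO minus TrspFF, at -0.96.

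The enzymes that make isopentenyl and farnesyl diphosphate moved apart in Trsp-Ins1KO islets. Idi1, the isomerase that turns isopentenyl diphosphate into dimethylallyl diphosphate, read 0.09 and 0.03 in Trsp-Ins1KO, 0.74 and 0.73 in Trsp-RIPKO and 1.05 and 0.99 in TrspFF. The 3 groups did not overlap, with Trsp-Ins1KO lowest. Idi1 fell in Trsp-Ins1KO to 51.3% of the TrspFF level (difference -0.96, SE 0.067, limma adjusted p = 0.0015) and in Trsp-RIPKO to 82.1% (-0.28, SE 0.067, limma adjusted p = 0.0295). Hmgcs1, which condenses acetoacetyl-CoA with acetyl-CoA in the cytosol, read 1.94 and 2.02 in Trsp-Ins1KO, 2.58 and 2.68 in Trsp-RIPKO and 2.77 and 2.66 in TrspFF. It was low on both Trsp-Ins1KO arrays only, and it fell there to 60.1% of the TrspFF level (-0.74, SE 0.08, limma adjusted p = 0.0033). In Trsp-RIPKO Hmgcs1 overlapped with TrspFF (-0.08, SE 0.08, limma adjusted p = 0.468).

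Mvk, the mevalonate kinase, went the other way and read 2.17 and 2.04 in Trsp-Ins1KO, 1.75 and 1.76 in Trsp-RIPKO and 1.58 and 1.68 in TrspFF. Both Trsp-Ins1KO arrays lay above all others, and Mvk rose there to 139% of the TrspFF level (0.48, SE 0.079, limma adjusted p = 0.00854). Its call was lost without the first TrspFF array (0.43, limma adjusted p = 0.063). The remaining 4 enzymes of this stretch were not called against TrspFF in either knockout. They are Acat2, the cytosolic acetoacetyl-CoA thiolase (0.15 in Trsp-Ins1KO and 0.07 in Trsp-RIPKO), Pmvk, the phosphomevalonate kinase (-0.06 and -0.14), Mvd, the mevalonate diphosphate decarboxylase (-0.09 and -0.46), and Fdps, the farnesyl diphosphate synthase (-0.09 and 0.04). Mouse Acat2 has a near-identical neighbour, Acat3, and whether its probe tells them apart was not tested. Without the Trsp-RIPKO or TrspFF arrays one at a time, Idi1 in Trsp-RIPKO stayed between -0.31 and -0.26 and its limma adjusted p reached 0.17, whereas Idi1 and Hmgcs1 in Trsp-Ins1KO kept their calls in each such fit.

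Promoters are shown for the 3 enzymes called before farnesyl diphosphate and for Cyp51 and Sc5d, the sterol enzymes after lanosterol that were called in both knockouts. Each is given as the 250 bases before the RefSeq start in build GRCm38.p6, read 5′ to 3′ on the strand of the gene. Capitals mark the motifs that were searched on both strands, which are the core of the sterol regulatory element CACCCCAC, the CCAAT box CCAAT, the GC box GGGCGG and the E-box CACGTG, with no overlap between them in these promoters. The stretches lie at chr13:8885356-8885605 on the plus strand for Idi1, chr13:119690101-119690350 on the plus strand for Hmgcs1, chr5:114444019-114444268 on the plus strand for Mvk, chr5:4104698-4104947 on the minus strand for Cyp51 and chr9:42264301-42264550 on the minus strand for Sc5d.
Idi1: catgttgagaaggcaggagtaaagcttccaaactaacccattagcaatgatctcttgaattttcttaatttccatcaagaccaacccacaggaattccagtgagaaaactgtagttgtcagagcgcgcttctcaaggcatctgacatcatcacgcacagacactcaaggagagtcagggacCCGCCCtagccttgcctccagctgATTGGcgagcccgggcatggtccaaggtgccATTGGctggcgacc
Hmgcs1: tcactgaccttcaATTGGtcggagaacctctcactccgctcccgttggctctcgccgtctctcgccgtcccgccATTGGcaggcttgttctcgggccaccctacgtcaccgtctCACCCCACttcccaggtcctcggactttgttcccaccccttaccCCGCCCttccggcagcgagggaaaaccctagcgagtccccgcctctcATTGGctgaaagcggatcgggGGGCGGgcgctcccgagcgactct
Mvk: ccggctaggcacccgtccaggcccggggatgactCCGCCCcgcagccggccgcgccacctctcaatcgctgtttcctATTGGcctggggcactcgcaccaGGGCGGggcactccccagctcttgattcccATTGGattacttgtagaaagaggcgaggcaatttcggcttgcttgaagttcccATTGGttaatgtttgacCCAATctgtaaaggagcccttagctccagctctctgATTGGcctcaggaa
Cyp51: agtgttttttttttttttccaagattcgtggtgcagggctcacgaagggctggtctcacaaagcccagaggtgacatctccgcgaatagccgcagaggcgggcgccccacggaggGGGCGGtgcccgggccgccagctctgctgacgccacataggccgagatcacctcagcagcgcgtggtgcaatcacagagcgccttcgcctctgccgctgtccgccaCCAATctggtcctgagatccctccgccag
Sc5d: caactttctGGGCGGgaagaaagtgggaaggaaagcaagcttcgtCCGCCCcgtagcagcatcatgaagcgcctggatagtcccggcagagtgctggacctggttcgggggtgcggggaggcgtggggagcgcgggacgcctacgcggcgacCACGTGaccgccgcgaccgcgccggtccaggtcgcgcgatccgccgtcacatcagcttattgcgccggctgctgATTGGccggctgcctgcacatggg

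RefSeq promoters were found for 25 members, with 34 start sites. Of these 34, 61.8% held a CCAAT box, against 33.8% of 32851 promoters of the same length, and 70.6% held a GC box, against 32.7%. The E-box stood in 14.7%, against 6.02%, and the core of the sterol regulatory element in 5.88%, against 2.58%, which is 1 start site each of Hmgcs1 and Acat2. The whole sterol regulatory element was searched as well, as 1 exact run of letters. That run stood in none of the 34 and in 0.0731% of all promoters. Forms of the element or of its core with other letters were not searched. These shares therefore do not show that a promoter lacks the element. In the printed stretch of Hmgcs1 the core runs from base 136 to base 129 before the start, between CCAAT boxes on either side. Mvk, which rose, holds 5 CCAAT boxes on both strands, Hmgcs1 holds 3 and Idi1 holds 2, both of which fell. Set against the calls in Trsp-Ins1KO, a CCAAT box was in a promoter of 5 of 6 members that fell, 4 of 5 that rose and 11 of 14 that were not called, and a GC box in 5 of 6, 5 of 5 and 11 of 14. A match of letters is a description of the sequence and not evidence of a bound site.

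The squalene and lanosterol steps showed no call against TrspFF, and the steps after lanosterol changed in part. Fdft1, the squalene synthase, Sqle, the squalene epoxidase, and Lss, the lanosterol synthase, differed by -0.08, -0.11 and -0.43 in Trsp-Ins1KO and by -0.29, -0.17 and -0.07 in Trsp-RIPKO. Cyp51, the lanosterol demethylase, read -2.61 and -2.87 in Trsp-Ins1KO, -2.68 and -2.48 in Trsp-RIPKO and -1.96 and -2.06 in TrspFF. Both knockouts lay below TrspFF and overlapped with each other. Cyp51 fell in Trsp-Ins1KO (-0.73, SE 0.12, limma adjusted p = 0.00871) and in Trsp-RIPKO (-0.57, SE 0.12, limma adjusted p = 0.0238), but its probe is dim and with normexp background correction the Trsp-Ins1KO difference turned to 0.07. Without the first TrspFF array the Trsp-Ins1KO difference of Cyp51 was -0.69 and its limma adjusted p was 0.057.

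Sc5d, the sterol C5 desaturase, read 0.51 and 0.34 in Trsp-Ins1KO, 0.49 and 0.45 in Trsp-RIPKO and 0.86 and 0.84 in TrspFF. Its levels in both knockouts lay close together and below TrspFF. Sc5d fell in Trsp-Ins1KO (-0.42, SE 0.083, limma adjusted p = 0.0137) and in Trsp-RIPKO (-0.37, SE 0.083, limma adjusted p = 0.0261). The 7-dehydrocholesterol reductase Dhcr7 rose in Trsp-Ins1KO (0.33, SE 0.086, limma adjusted p = 0.0288) with -2.71 and -2.59, against -2.91 and -3.06 in TrspFF. Tm7sf2, a sterol C14 reductase, fell in Trsp-Ins1KO (-0.39, SE 0.092, limma adjusted p = 0.0231) with 1.35 and 1.14, against 1.66 and 1.61 in TrspFF, and overlapped neither with Trsp-RIPKO at 1.57 and 1.60. These calls did not hold in every fit without an array. Leaving out the first TrspFF array gave limma adjusted p-values of 0.081 for Sc5d (-0.41), 0.069 for Dhcr7 (0.41) and 0.12 for Tm7sf2 (-0.36), leaving out the second gave 0.071 (-0.43), 0.15 (0.26) and 0.089 (-0.41), and leaving out the second Trsp-Ins1KO array gave 0.093 for Dhcr7 (0.28) and 0.056 for Tm7sf2 (-0.28). With a mean over both of its probes Tm7sf2 was at -0.18 (limma adjusted p = 0.12). The call of Dhcr7 was also lost with median scaling (0.26), quantile normalization (0.27), no filter on dim probes and a trended robust fit (limma adjusted p = 0.16). With only the groups compared in the fit it was lost as well (limma adjusted p = 0.054), and leaving out either Trsp-RIPKO array repeats that fit. In Trsp-RIPKO the calls of Cyp51 and Sc5d were lost when any Trsp-RIPKO or TrspFF array was left out, with limma adjusted p-values of up to 0.12 for Cyp51 (-0.67 to -0.47) and up to 0.13 for Sc5d (-0.39 to -0.35).

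Nsdhl, the C4 decarboxylase, Hsd17b7, the 3-ketosteroid reductase of the same complex, and Ebp, the sterol isomerase, were not called in any comparison. Nsdhl read -3.26 and -2.01 on the Trsp-Ins1KO arrays, which is the widest gap between arrays of a group among the tested members, and -2.31 and -2.10 in Trsp-RIPKO and -2.61 and -2.54 in TrspFF. With the first Trsp-Ins1KO array left out, its difference from TrspFF turned from -0.06 to 0.57. Hsd17b7 differed by -0.01 in Trsp-Ins1KO and 0.23 in Trsp-RIPKO, and Ebp by 0.15 and 0.05.

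**Figure D2:**
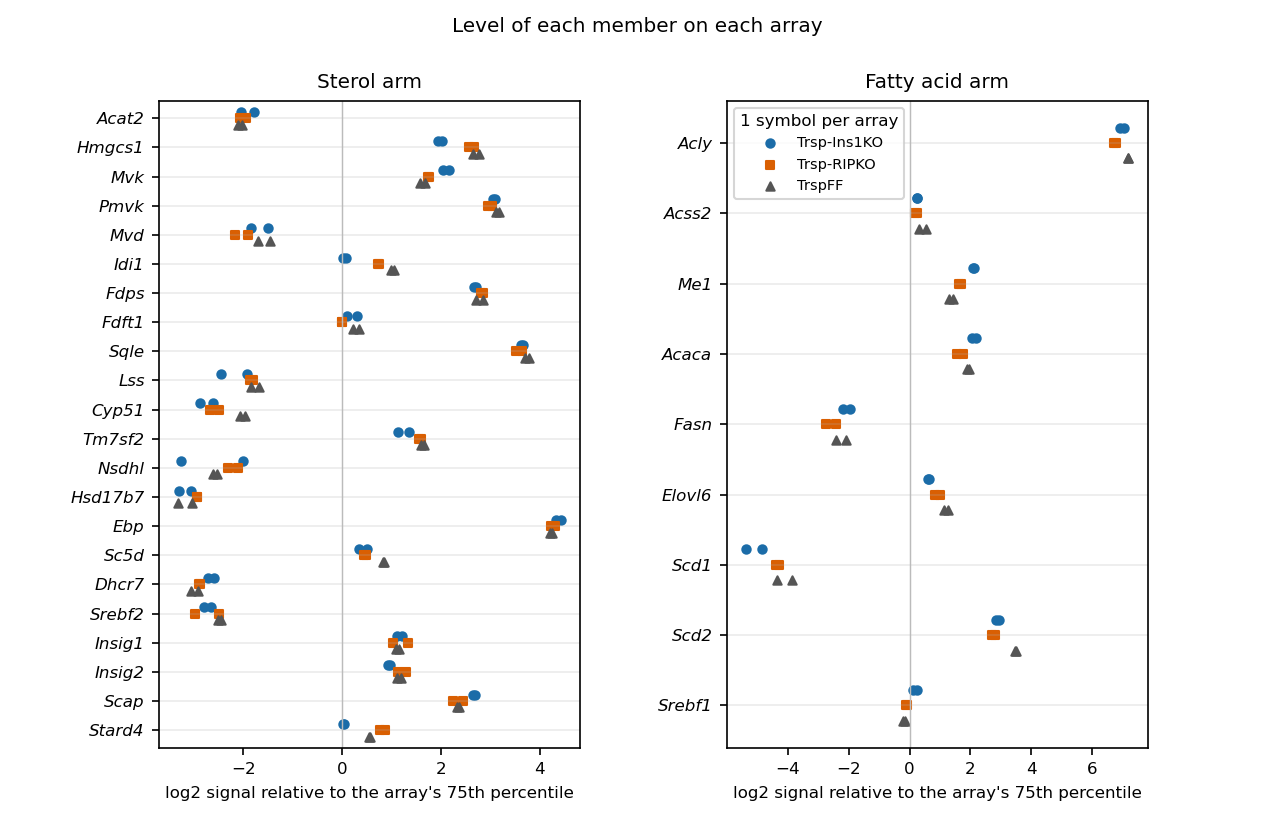
Log2 signal relative to the 75th percentile of the array for each of the 31 members, with 1 symbol per array (circles Trsp-Ins1KO, squares Trsp-RIPKO, triangles TrspFF). Idi1, Hmgcs1 and Stard4 lie lowest on both Trsp-Ins1KO arrays, Me1 lies highest there, and Scd2 lies highest on both TrspFF arrays. Levels of different genes come from different probes and are not comparable with each other.

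Among the regulators of the sterol arm, Stard4 moved in opposite directions in the knockouts. Stard4, a carrier that moves cholesterol between membranes in the cytosol, read 0.03 and 0.05 in Trsp-Ins1KO, 0.87 and 0.78 in Trsp-RIPKO and 0.55 and 0.57 in TrspFF. The pairs of arrays were tight and the 3 groups stood apart. Stard4 fell in Trsp-Ins1KO to 69.8% of the TrspFF level (-0.52, SE 0.069, limma adjusted p = 0.00499) and rose in Trsp-RIPKO to 120% (0.27, SE 0.069, limma adjusted p = 0.0366). The rise was lost with median scaling (0.03, limma adjusted p = 0.8) and without any 1 of the TrspFF or Trsp-RIPKO arrays (0.22 to 0.31, limma adjusted p up to 0.18), while the fall kept its call in every fit that left out an array.

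Scap, the escort protein of SREBP, rose in Trsp-Ins1KO (0.33, SE 0.088, limma adjusted p = 0.0319). It read 2.69 and 2.66 there, 2.45 and 2.25 in Trsp-RIPKO and 2.36 and 2.33 in TrspFF, so that Trsp-Ins1KO alone stood apart. Without 1 of the Trsp-Ins1KO or TrspFF arrays Scap stayed between 0.32 and 0.35 with limma adjusted p-values of up to 0.14, and with normexp it was 0.09. Srebf2, the gene of SREBP2, was at -0.25 in both knockouts and was not called (limma adjusted p = 0.298 in Trsp-Ins1KO and 0.302 in Trsp-RIPKO). The retention proteins Insig1 (0.04 in Trsp-Ins1KO and 0.07 in Trsp-RIPKO) and Insig2 (-0.19 and 0.06) were not called either.

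In the fatty acid arm, Me1 was higher and Scd2 lower in both knockouts than in TrspFF. Me1, the cytosolic malic enzyme that supplies NADPH, read 2.11 and 2.09 in Trsp-Ins1KO, 1.69 and 1.61 in Trsp-RIPKO and 1.31 and 1.44 in TrspFF. The groups stood apart, with Trsp-Ins1KO highest and TrspFF lowest. Me1 rose to 165% of the TrspFF level in Trsp-Ins1KO (0.72, SE 0.077, limma adjusted p = 0.00314) and to 121% in Trsp-RIPKO (0.28, SE 0.077, limma adjusted p = 0.0439). The rise in Trsp-RIPKO was lost with median scaling (0.04, limma adjusted p = 0.75) and without any 1 of the 6 arrays (0.22 to 0.34, limma adjusted p up to 0.22).

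Scd2, the stearoyl-CoA desaturase best known from brain, read 2.94 and 2.83 in Trsp-Ins1KO, 2.82 and 2.69 in Trsp-RIPKO and 3.48 and 3.45 in TrspFF. Both knockouts lay below TrspFF with a clear gap. Scd2 fell in Trsp-Ins1KO to 66.9% of the TrspFF level (-0.58, SE 0.081, limma adjusted p = 0.00556) and in Trsp-RIPKO to 61.1% (-0.71, SE 0.081, limma adjusted p = 0.00727). Only without the first TrspFF array was a call of Scd2 lost, in Trsp-RIPKO (-0.70, limma adjusted p = 0.057). Scd2 belongs to a family of similar desaturases, and whether its probe reads a single one of them was not tested.

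Elovl6, the elongase that makes stearate from palmitate, fell in Trsp-Ins1KO (-0.57, SE 0.091, limma adjusted p = 0.00752). It read 0.63 and 0.60 there, 0.82 and 0.99 in Trsp-RIPKO and 1.13 and 1.25 in TrspFF, which put Trsp-RIPKO between the other groups (-0.29, limma adjusted p = 0.06). Without the second TrspFF array, Elovl6 in Trsp-Ins1KO was -0.51 with a limma adjusted p of 0.051. Srebf1 rose in Trsp-Ins1KO (0.35, SE 0.072, limma adjusted p = 0.0154) with 0.12 and 0.23, against -0.20 and -0.16 in TrspFF, and its limma adjusted p was 0.096 without the first TrspFF array (0.34) and 0.077 without the second (0.37). In Trsp-RIPKO Srebf1 read -0.11 and -0.07 and was not called (0.09, limma adjusted p = 0.378).

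Acly, which cleaves citrate into acetyl-CoA and oxaloacetate in the cytosol, fell in Trsp-RIPKO (-0.43, SE 0.072, limma adjusted p = 0.0138). Its brightest probe read 7.02 and 6.92 in Trsp-Ins1KO, 6.71 and 6.76 in Trsp-RIPKO and 7.18 and 7.16 in TrspFF, with no overlap between groups. With a mean over both Acly probes the difference in Trsp-RIPKO was -0.06 and no longer called, and without any 1 of the Trsp-RIPKO or TrspFF arrays it lay between -0.46 and -0.41 with limma adjusted p-values of up to 0.09. Fasn, the fatty acid synthase, and Acaca, the acetyl-CoA carboxylase that makes malonyl-CoA, were not called against TrspFF (0.18 and 0.20 in Trsp-Ins1KO, -0.32 and -0.26 in Trsp-RIPKO). Acss2, which activates free acetate, was at -0.20 in Trsp-Ins1KO and -0.22 in Trsp-RIPKO, also without a call.

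Set against each other, the arms differed by little in Trsp-Ins1KO and by more in Trsp-RIPKO. The median of the sterol arm minus that of the fatty acid arm was -0.08 in Trsp-Ins1KO minus TrspFF and 0.25 in Trsp-RIPKO minus TrspFF. Array by array, relative to the TrspFF mean of each gene, it was -0.085 and -0.117 in Trsp-Ins1KO, 0.258 and 0.165 in Trsp-RIPKO and 0.036 and -0.036 in TrspFF, where arrays of a group differed by a pooled SD of 0.05. On the Trsp-RIPKO arrays the fatty acid arm was the lower of the arms, at -0.303 and -0.195, against -0.045 and -0.029 for the sterol arm. No test was made of an arm median, because genes are not replicates. The value for Trsp-RIPKO came down to 0.09 with a mean over all probes of a gene and to 0.07 with normexp, and that for Trsp-Ins1KO turned to 0.11 when the regulators were left out of both arms.

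**Figure D3:**
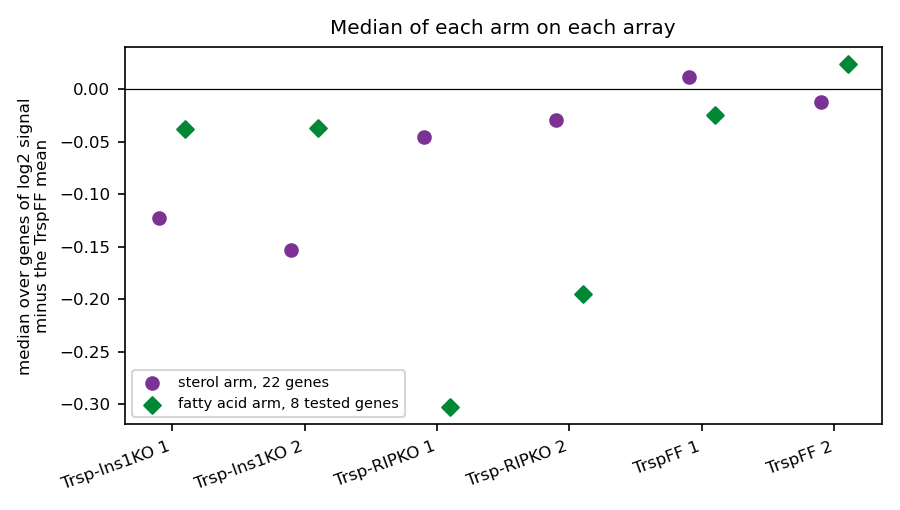
Median over the 22 sterol arm genes (purple circles) and the 8 tested fatty acid arm genes (green diamonds) of the log2 signal minus the mean of the TrspFF arrays for that gene, on each of the 6 arrays. The fatty acid arm lies lowest on the Trsp-RIPKO arrays, at -0.303 and -0.195, and the sterol arm lies lowest on the Trsp-Ins1KO arrays, at -0.123 and -0.153.

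Trsp-Ins1KO and Trsp-RIPKO were also compared directly, which tests the difference between the Cre lines, with slide and line not separable. Of all genes 38.7% were called, 19.3% higher and 19.4% lower. In the sterol arm 2 members were higher in Trsp-Ins1KO than in Trsp-RIPKO and 4 were lower (median -0.04), and in the fatty acid arm 3 were higher and none lower (median 0.25, against -0.01 over all genes). Median scaling shifted all genes by 0.167 and normexp by 0.142 in this comparison, and 70.8% and 68.7% of the called genes were then higher, against 49.8%. Stard4 had the largest difference of the members (-0.79, SE 0.069, limma adjusted p = 0.00227), followed by Idi1 (-0.68, SE 0.067, limma adjusted p = 0.00289) and Hmgcs1 (-0.66, SE 0.08, limma adjusted p = 0.00465), and these 3 kept their calls in all 16 alternatives that keep the scanner names. Acaca was higher in Trsp-Ins1KO (0.46, SE 0.099, limma adjusted p = 0.0208), with 2.19 and 2.06 against 1.57 and 1.77 in Trsp-RIPKO, although neither line was called against TrspFF at 1.90 and 1.96. Me1 (0.45, limma adjusted p = 0.0108), Mvk (0.35, limma adjusted p = 0.0227), Scap (0.33, limma adjusted p = 0.0391) and Srebf1 (0.27, limma adjusted p = 0.0399) were higher and Tm7sf2 lower (-0.34, limma adjusted p = 0.0386). Those 6 were each lost in at least 1 fit without an array, for Me1 only without the second Trsp-RIPKO array (0.41, limma adjusted p = 0.055). Acaca was lost without the first Trsp-RIPKO array (0.36), the first Trsp-Ins1KO array (0.39) and either TrspFF array. Its call was also lost with a mean over its entering probes (0.22, limma adjusted p = 0.13). The second entering Acaca probe showed no difference between the lines (-0.01). Only without the second Trsp-Ins1KO array for Mvk, the first for Tm7sf2 and Srebf1, and the first Trsp-RIPKO array for Scap did the call hold. The highest limma adjusted p over these fits was 0.087 for Mvk (0.29 to 0.41), 0.12 for Scap (0.23 to 0.42), and 0.14 for both Srebf1 (0.21 to 0.32) and Tm7sf2 (-0.44 to -0.24).

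Other probes of the same gene gave other values for some members, as the plot of probes shows. The second Acly probe was higher in both knockouts, by 0.74 in Trsp-Ins1KO (limma adjusted p over probes = 0.0218) and by 0.31 in Trsp-RIPKO, where its brightest probe was at -0.20 and -0.43. The 3 Me1 probes were higher in each knockout, by 0.72, 1.34 and 0.59 in Trsp-Ins1KO and by 0.28, 1.06 and 0.10 in Trsp-RIPKO. Insig2 was lower in Trsp-Ins1KO by its second probe (-0.50, limma adjusted p over probes = 0.00686), which the brightest probe did not show as a call (-0.19). The second Mvk probe was at 0.20 in Trsp-Ins1KO and -0.32 in Trsp-RIPKO, and the second Tm7sf2 probe at 0.02 and 0.01. For Acaca the second entering probe was at -0.24 in Trsp-Ins1KO and -0.23 in Trsp-RIPKO, where the brightest was at 0.20 and -0.26. Where on the transcript each probe lies was not analysed here.

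**Figure D4:**
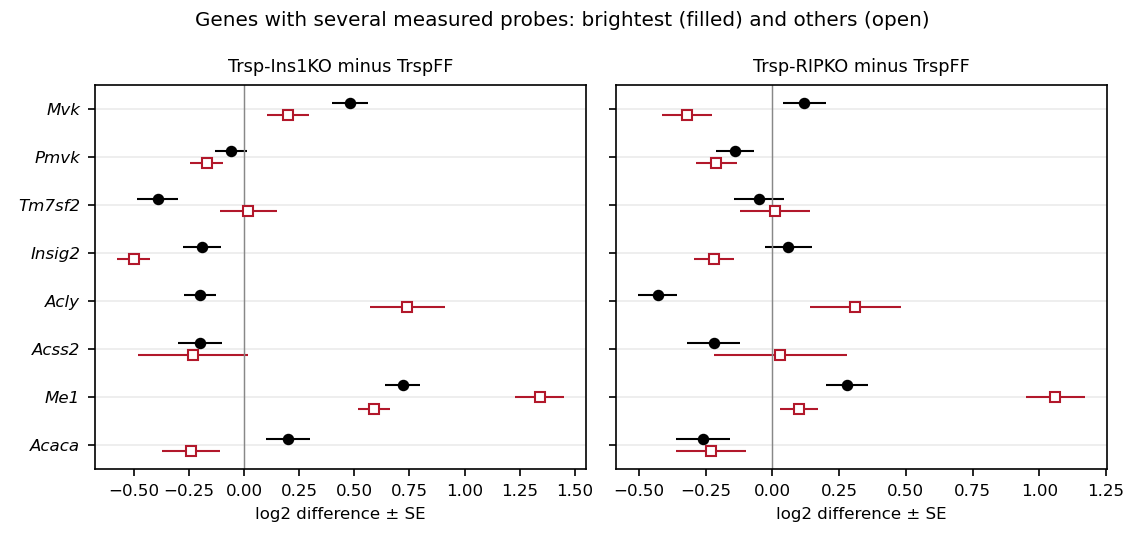
Log2 difference with SE for members with several entering probes, in Trsp-Ins1KO minus TrspFF and Trsp-RIPKO minus TrspFF. Filled circles are the brightest probe of each gene, which the other values use, and open squares are its other probes. The probes of Acly lie on opposite sides of 0 in both comparisons, while all 3 probes of Me1 lie above 0.

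Genes around these pathways were counted in 6 lists kept apart from the members. The share called in a list was 38.9% to 57.1% in Trsp-Ins1KO, against 45.9% of all genes, and 13.3% to 43.8% in Trsp-RIPKO, against 36.4%, except that 7 of 14 glycerolipid genes were called there. Of 13 genes of SREBP processing and sterol sensing, 5 rose and 2 fell in Trsp-Ins1KO, with Syvn1, a ubiquitin ligase of the endoplasmic reticulum, at 0.87 (SE 0.079, limma adjusted p = 0.00235) and Mbtps2, the site-2 protease that frees SREBP, at -0.49 (SE 0.098, limma adjusted p = 0.0138). The Mbtps2 call was lost with normexp (0.05), with a mean over probes and without either TrspFF array or the second Trsp-Ins1KO array. In Trsp-RIPKO 1 rose and 2 fell, among them Erlin2 (-0.48) and Erlin1 (-0.35), which take part in the turnover of sterol-sensing proteins. Both calls were lost with no filter and without either TrspFF array or the second Trsp-RIPKO array, and that of Erlin1 also without the first (limma adjusted p up to 0.13 and 0.14). Of 16 tested genes of sterol transport, efflux and esterification, 6 rose and 3 fell in Trsp-Ins1KO and 4 rose and 3 fell in Trsp-RIPKO. Gramd1b, which carries cholesterol from the plasma membrane to the endoplasmic reticulum, rose by 0.86 in both lines (SE 0.073, limma adjusted p = 0.00216 in Trsp-Ins1KO and 0.00424 in Trsp-RIPKO), and the oxysterol-binding protein Osbp by 0.75 and 0.61. Osbp lost its call in Trsp-RIPKO with no filter and without either TrspFF array or the second Trsp-RIPKO array (limma adjusted p up to 0.099). Of 15 genes of the isoprenoid branch, 4 rose and 3 fell in Trsp-Ins1KO, with Dhdds, which makes dolichol precursors, at 0.73, and 1 rose and 1 fell in Trsp-RIPKO.

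Of 30 tested genes of fatty acid elongation, desaturation and supply, 8 rose and 4 fell in Trsp-Ins1KO and 5 rose and 5 fell in Trsp-RIPKO. Slc25a1, which exports citrate from mitochondria, fell in Trsp-RIPKO (-0.62, SE 0.11, limma adjusted p = 0.0149), as did Tecr, the last enzyme of the elongation cycle (-0.72, SE 0.17, limma adjusted p = 0.0286), and Fads1, the delta-5 desaturase, rose there (0.66, SE 0.064, limma adjusted p = 0.00556). The falls of Slc25a1 and Tecr were not called with no filter or without any 1 of the TrspFF or Trsp-RIPKO arrays (limma adjusted p up to 0.09 and 0.13). Of 14 tested genes of glycerolipid synthesis, 7 rose and 1 fell in Trsp-Ins1KO (median 0.32) and 4 rose and 3 fell in Trsp-RIPKO (median -0.14). Agpat1, an acyltransferase that makes phosphatidic acid, rose by 1.01 in Trsp-Ins1KO (SE 0.094, limma adjusted p = 0.0025) and Dgat2, which makes triglyceride, by 0.82 (SE 0.072, limma adjusted p = 0.00225). Gpat3, a glycerol phosphate acyltransferase, rose by 0.90 in Trsp-Ins1KO and fell by 0.73 in Trsp-RIPKO, a difference between the lines of 1.63 (SE 0.16, limma adjusted p = 0.00275). That fall was not called with normexp (-0.13), with no filter or without any 1 of the TrspFF or Trsp-RIPKO arrays (limma adjusted p up to 0.19), and the rise was not called without the second TrspFF array (limma adjusted p = 0.051), whereas the difference between the lines was called in every alternative that keeps the scanner names. Of 18 genes of fatty acid oxidation, 3 rose and 4 fell in Trsp-Ins1KO and 2 rose and 4 fell in Trsp-RIPKO, with Cpt1a, the gate for fatty acid entry into mitochondria, at -0.53 in Trsp-Ins1KO.

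Markers of other cells moved with the groups. Of 10 hepatocyte genes, the linear signal summed over the list was 9.54 and 9.34 times the 75th percentile in Trsp-Ins1KO, against 3.66 and 3.39 in Trsp-RIPKO and 3.12 and 3.0 in TrspFF, with 7 of 7 tested genes higher in Trsp-Ins1KO than in TrspFF and 3 higher and 1 lower in Trsp-RIPKO. In that list Apoa1, Fga, Cps1 and Apob were not well above background in Trsp-Ins1KO. In TrspFF 8 of the 10 were not, namely Alb, Apoa1, Apoc3, Fgb, Fga, Cps1, Ahsg and Apob. Apob, which was tested, was well above background only in Trsp-RIPKO. A gene could enter through a knockout where it was high, so the count of 7 of 7 was in part set by the filter. Beta-cell genes summed to 5910 and 6480 in Trsp-Ins1KO, 3630 and 3890 in Trsp-RIPKO and 3270 and 3670 in TrspFF, with all 10 well above background in every group. Of these 10, 6 rose and 2 fell in Trsp-Ins1KO and none rose and 4 fell in Trsp-RIPKO. A linear sum weighs bright genes most, such as Ins1 and Ins2, with means of 11.34 and 11.05 in Trsp-Ins1KO. Their rises there (0.99 and 0.86) were not called with quantile normalization and went down to 0.18 and 0.04 over the alternatives. The higher sum in Trsp-Ins1KO thus depends on the scaling. The genes that mark fat cells, Adipoq, Lep, Plin1, Cidec, Cfd, Retn and Lipe, were well above background in none of the groups. Of the other 3 genes of that list, Fabp4 fell in both knockouts (-1.20 in Trsp-Ins1KO and -0.96 in Trsp-RIPKO) and Cidea fell in Trsp-Ins1KO (-1.01, but -0.04 with normexp), while Pparg rose in Trsp-Ins1KO (0.72). The whole list of 10 summed to 5.24 and 5.04 in Trsp-Ins1KO, 5.34 and 4.84 in Trsp-RIPKO and 8.26 and 8.43 in TrspFF.

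Endothelial genes summed to 80.3 and 85.1 in Trsp-Ins1KO, 57.3 and 57.0 in Trsp-RIPKO and 43.5 and 44.7 in TrspFF, with 5 of 8 higher in each knockout. Acinar genes summed to 10.6 and 10.4 in Trsp-Ins1KO, 11.5 and 13.2 in Trsp-RIPKO and 4.99 and 5.13 in TrspFF, with 10 higher and 1 lower of 13 tested in Trsp-Ins1KO and 12 higher in Trsp-RIPKO. Of 9 tested fibroblast genes, 2 rose and 7 fell in Trsp-Ins1KO and 7 rose in Trsp-RIPKO, while the summed signal was 76.1 and 70.3 in Trsp-Ins1KO, 68.3 and 67.1 in Trsp-RIPKO and 58.8 and 63.0 in TrspFF. The sum thus lay above TrspFF in Trsp-Ins1KO although most genes of the list fell. Of 8 genes of dividing cells, 3 rose in Trsp-Ins1KO and 7 in Trsp-RIPKO. Of these genes Top2a and Bub1 were not well above background in Trsp-Ins1KO or TrspFF and entered through Trsp-RIPKO.

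The genes of alpha, delta and PP cells summed to 911 and 844 in Trsp-Ins1KO, 955 and 1020 in Trsp-RIPKO and 1350 and 1370 in TrspFF. Of these 8 genes, none rose and 6 fell in Trsp-Ins1KO, and 1 rose and 3 fell in Trsp-RIPKO. Intestinal genes summed to 9.68 and 9.19 in Trsp-Ins1KO, 9.73 and 9.91 in Trsp-RIPKO and 7.46 and 7.16 in TrspFF, with 3 of 5 tested higher in Trsp-Ins1KO and 4 in Trsp-RIPKO. The summed signal of the other endocrine cells was thus lower in both knockouts than in TrspFF, and that of the intestinal list was higher. Of 10 intestinal genes with a probe, 8 were not well above background in TrspFF, 7 in Trsp-Ins1KO and 5 in Trsp-RIPKO. Fabp1, Fabp2 and Lct entered only through a knockout where they were high, so the counts of intestinal genes called higher were in part set by the filter. Of 3 tested Schwann-cell genes 2 fell in Trsp-Ins1KO and none passed the test in Trsp-RIPKO, and of 5 tested duct genes 1 rose and 1 fell in Trsp-Ins1KO and 2 rose and 1 fell in Trsp-RIPKO. Of 7 macrophage genes, 3 rose in Trsp-Ins1KO and 1 in Trsp-RIPKO. The part of these shifts in the values of the 31 members was not tested.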

How the data were processed

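Total RNA of islets was labelled with Cy3 and hybridised to 6 Agilent arrays of design 026655. Per the file headers, the authors read them with Feature Extraction 10.7.3.1, and each deposited scanner file holds a processed intensity per spot, background-subtracted and not scaled between arrays, with flags (0 or 1) for spots well above background, saturated or outlying. A further table deposited by the authors holds log2 values of 39485 probes. How they were scaled is not given in the sources here.

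Here log2 of the processed intensity minus the 75th percentile of each array was used. Control and outlier spots were left out, repeated spots of a probe were averaged, and 3 of 39429 probes without a usable spot on every array were dropped. RefSeq accessions named 26053 probes (66.1%). To enter, a probe had to be well above background on both arrays of some group (23199 probes), and the brightest entering probe stood for its gene. The comparisons used limma 3.58.1 in R 4.3.3 on all 6 arrays without a block (5.1 degrees of freedom), two-sided, with Benjamini-Hochberg adjustment over 19021 genes. The fit was checked on simulated data for Trsp-Ins1KO minus TrspFF over 19021 genes, with 100 genes changed by 1 log2 unit and 100 by 0.5. There it called 45% of genes changed by 1 log2 unit, 6% of those changed by 0.5 and 3 of 18821 unchanged genes. Far fewer genes changed there than the 45.9% called in the data. The adjustment depends on that share, so these rates do not carry over to the data. Same-numbered arrays did not deviate together (correlations 0.0934, 0.0794 and 0.0645), so the numbers were not taken as pairs. Alternatives changed the background correction, scaling, filter, choice of probe, moderation, block, source table and arrays.

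All 31 members are named. From each pathway list up to 3 called genes per comparison with the largest difference could be named. The members and lists were chosen with earlier results of these data known. Promoters come from RefSeq (GRCm38.p6), which was otherwise used for names only. Tables were made with pandas 2.3.3 and numpy 2.4.6 in Python 3.11.15, plots with matplotlib 3.10.9.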

Additional observations from a re-analysis of the deposited data

Results flagged for a closer look

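For 9 of 30 tested members (30.0%) the effects of the Cre lines on islets differed from each other by the limma test of Trsp-Ins1KO minus Trsp-RIPKO. Of all genes 38.7% were called in this comparison, a larger share. No explanation was tested. Lower in Trsp-Ins1KO were Stard4 (-0.79), Idi1 (-0.68), Hmgcs1 (-0.66) and Tm7sf2 (-0.34). Higher in Trsp-Ins1KO were Acaca (0.46, but -0.01 by its second entering probe), Me1 (0.45), Mvk (0.35), Scap (0.33) and Srebf1 (0.27). Slide and Cre line cannot be told apart here, and Xist read -5.79 and -5.60 in Trsp-Ins1KO (not above background), against 1.05 and 1.34 in Trsp-RIPKO. Groups of 2 arrays are too small for a search for single outlying arrays.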

How the results depend on the processing

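With 2 arrays a group, leaving out 1 array leaves that group with a single array, whose spread is taken from the others. Where that group is not in the comparison, the fit repeats the one with only the groups compared, so the alternatives are not all distinct. Over the 6 such fits, members called in Trsp-Ins1KO against TrspFF ranged from 3 to 10 (sterol arm) and 2 to 4 (fatty acid arm), in Trsp-RIPKO against TrspFF from 0 to 6 and 0 to 2, and in Trsp-Ins1KO against Trsp-RIPKO from 3 to 5 and 1 to 2. The difference between arm medians ranged from -0.14 to -0.08, 0.17 to 0.29 and -0.34 to -0.27 in the same comparisons. Over all genes, 8737 calls in Trsp-Ins1KO against TrspFF came to 3791 and 4304 without the first or second TrspFF array and 13974 with normexp. In Trsp-RIPKO against TrspFF, 6921 calls came to 2692 with no filter on dim probes, 862 and 1347 without a TrspFF array and 2874 and 1534 without a Trsp-RIPKO array. In Trsp-Ins1KO against Trsp-RIPKO, 7365 calls came to 12065 with normexp, 11645 with no filter and 4316 and 4176 without a Trsp-RIPKO array. The share of all genes called also changed between the fits without an array, in each of the 3 comparisons. The ranges of member counts above can thus not be read as a property of the members alone. The causes were not tested.

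In Trsp-Ins1KO against TrspFF, normexp gave 16 called sterol members, with 73.5% of all genes called, and an arm difference of -0.02. That difference was -0.18 with a mean over probes, 0.11 with no filter, 0.11 with enzymes only and 0.08 under the table's own names. In Trsp-RIPKO against TrspFF, the sterol count was 8 with median scaling and 0 with no filter. The fatty acid count was 6 with median scaling, 1 with no filter and 5 with a trended robust fit. In these 3 settings 48.8%, 8.28% and 44.7% of all genes were called. The arm difference there was 0.09 with a mean over probes, 0.07 with normexp and 0.20 with quantile normalization. In Trsp-Ins1KO against Trsp-RIPKO, the sterol count was 14 with normexp and 3 with only these groups in the fit, where 63.4% and 28.1% of all genes were called. The fatty acid count was 5 with median scaling, 5 with quantile normalization, 6 with probes above background on all arrays and 6 with a trended robust fit. All genes were called there at 42.3%, 37.9%, 43.9% and 45.6%. The arm difference was -0.06 with normexp.

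With the replicate block, 3 sterol and 2 fatty acid members were called in Trsp-RIPKO against TrspFF, where Stard4 (limma adjusted p = 0.056) and Me1 (0.067) lost their calls. The block left the counts at 9 and 4 in Trsp-Ins1KO against TrspFF and at 6 and 3 in Trsp-Ins1KO against Trsp-RIPKO. With it 34.7%, 44.6% and 37.1% of all genes were called in these 3 comparisons, in the order given.

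Signs turned with normexp in Trsp-Ins1KO against TrspFF for Mvd (0.23), Cyp51 (0.07), Nsdhl (0.44), Hsd17b7 (0.48), Srebf2 (0.35), Lss (0.10), Ebp (-0.09) and Insig1 (-0.06), and in Trsp-Ins1KO against Trsp-RIPKO for Sqle (-0.19), Cyp51 (0.34), Hsd17b7 (0.40), Pmvk (-0.11), Lss (0.14), Nsdhl (0.20), Ebp (-0.07), Srebf2 (0.39, against 0.0) and Insig1 (0.04). In Trsp-RIPKO against TrspFF it turned Ebp (-0.02), Insig1 (-0.10), Insig2, Scap and Elovl6, none of them called. Nsdhl turned to 0.57 in Trsp-Ins1KO against TrspFF without the first Trsp-Ins1KO array and was -0.68 without the second. Under the own names of the authors' table, which exchange TrspFF and Trsp-Ins1KO, every called difference of Trsp-Ins1KO from TrspFF turned by construction. The other comparisons became different ones and turned in part. Against TrspFF, Trsp-Ins1KO then gave Hmgcs1 0.74, Mvk -0.47, Idi1 0.96, Cyp51 0.73, Tm7sf2 0.39, Sc5d 0.42, Dhcr7 -0.33, Scap -0.33, Stard4 0.52, Me1 -0.72, Elovl6 0.57, Scd2 0.58 and Srebf1 -0.35. Trsp-RIPKO against TrspFF gave Hmgcs1 0.66, Mvk -0.35, Idi1 0.68, Cyp51 0.17, Tm7sf2 0.34, Sc5d 0.05, Scap -0.32, Me1 -0.45 and Srebf1 -0.26, while Stard4 (0.79), Scd2 (-0.13) and Acly (-0.23) kept their sign and the calls of Scd2 and Acly were lost. Trsp-Ins1KO against Trsp-RIPKO gave Hmgcs1 0.08, Mvk -0.12, Idi1 0.28, Cyp51 0.57, Tm7sf2 0.05, Sc5d 0.37, Scap -0.01, Me1 -0.28 and Srebf1 -0.09, while Stard4 (-0.27) and Acaca (0.26) kept their sign. Leaving those names aside, calls held in all 16 alternatives for Hmgcs1, Idi1, Stard4, Me1 and Scd2 in Trsp-Ins1KO against TrspFF, for Hmgcs1, Idi1 and Stard4 in Trsp-Ins1KO against Trsp-RIPKO, and for none of the 7 in Trsp-RIPKO against TrspFF.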
